A study of Mus musculus with 16 samples.

Results

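Proprioceptive sensory neurons (pSN) of the mouse were followed from embryonic day (e) 15.5 to postnatal day (p) 1. A well that held 1 tdTomato+ cell counted as a proprioceptor when it met each of these conditions: at least 10000 unique molecular identifiers (UMIs, each standing for 1 captured mRNA molecule), a share of mitochondrially encoded UMIs under 20%, at least 1 UMI each of *Pvalb*, *Runx3*, *Etv1* and *Ntrk3*, at least 300 CPM (UMIs of a gene per 1000000 of the well) of *Etv1*, *Apoe* and *Fabp7* together under 200 CPM, and *Col1a1* and *Col1a2* together under 500 CPM. These conditions were met by 523 of 1536 wells, 262 of 960 at e15.5 and 261 of 576 at p1. The counts of the member wells were summed per library, which gave 10 e15.5 libraries and 6 p1 libraries. The genes, the UMI total and the mitochondrial share that chose the wells are described below without a test.

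The wells came from thoracic and lumbar dorsal root ganglia (DRG), and mRNA was counted by CEL-Seq2, in which barcoded poly(A)-primed cDNA is amplified linearly by in vitro transcription. The e15.5 cells came from the PvtdTom strain, a BAC line with tdTomato under the parvalbumin promoter, and were isolated by fluorescence-activated cell sorting. The strain given for p1 is Trpv1Cre; PvFlp; Ai65 and PvCre; Ai14. Ai14 is a tdTomato reporter allele opened by Cre, and Ai65 one that needs both Cre and Flp. In the study, Trpv1Cre with PvFlp marks proprioceptors that connect to back muscles, and PvCre with Ai14 takes in parvalbumin-expressing neurons at large. According to its methods, most p1 cells sequenced came from Trpv1Cre; PvFlp; Ai65 mice, made with different Trpv1Cre lines (Basbaum and Hoon), and fewer from PvCre; Ai14 mice. The p1 cells were thus chosen largely for back muscle, whereas the e15.5 line made no such choice. According to the methods the p1 cells were picked by hand and their ganglia stayed longer in collagenase, whereas the sample labels give sorting for both stages. Line, isolation and digestion changed with stage and cannot be told apart from it. The labels name neither the line nor the segmental level of a library, nor do they say that libraries came from separate animals, so that p-values measure the spread between libraries.

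Proprioceptors signal muscle length and tension from muscle spindles and Golgi tendon organs, and those of spindles synapse directly on motor neurons. Their differentiation depends on the neurotrophin 3 receptor TrkC (*Ntrk3*), the transcription factor *Runx3* and the ETS factor *Etv1*. At e15.5 their axons have reached the muscles and are growing into the ventral spinal cord. Around birth spindle endings and monosynaptic contacts are already formed but still immature, and adult firing, myelin and subtype properties appear over the following weeks.

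Member wells per library numbered 6 to 63 at e15.5 and 7 to 67 at p1. Member wells held more UMIs at e15.5: the library medians ran from 104440.0 to 174183 (mean 139386) at e15.5 and from 12244 to 87204 (mean 49703) at p1, with no overlap. After thinning each well to 10000 UMIs, for which no member well was too shallow, the library medians of genes detected were 4109 to 4341 at e15.5 and 3626 to 3924 at p1, so that their mean fell by 479.8 genes (exact permutation test over the 16 libraries, two-sided p = 0.00025, the smallest it can give). Without thinning the means were 11416 and 7590 genes. Mitochondrially encoded genes took 3.66% to 6.09% of the summed UMIs at e15.5 and 8.35% to 12.6% at p1. The p1 library S3 stood apart: it was the shallowest, with 7 member wells and 124103 summed UMIs, while the other libraries held 1054175 to 7095479. In S3 1 UMI is 8.54 normalised CPM and a count of 0 allows up to 25.6 CPM, so that values below this in S3 carry little. All libraries used the same 96 well barcodes, and no wells had identical counts.

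**Figure D1:**
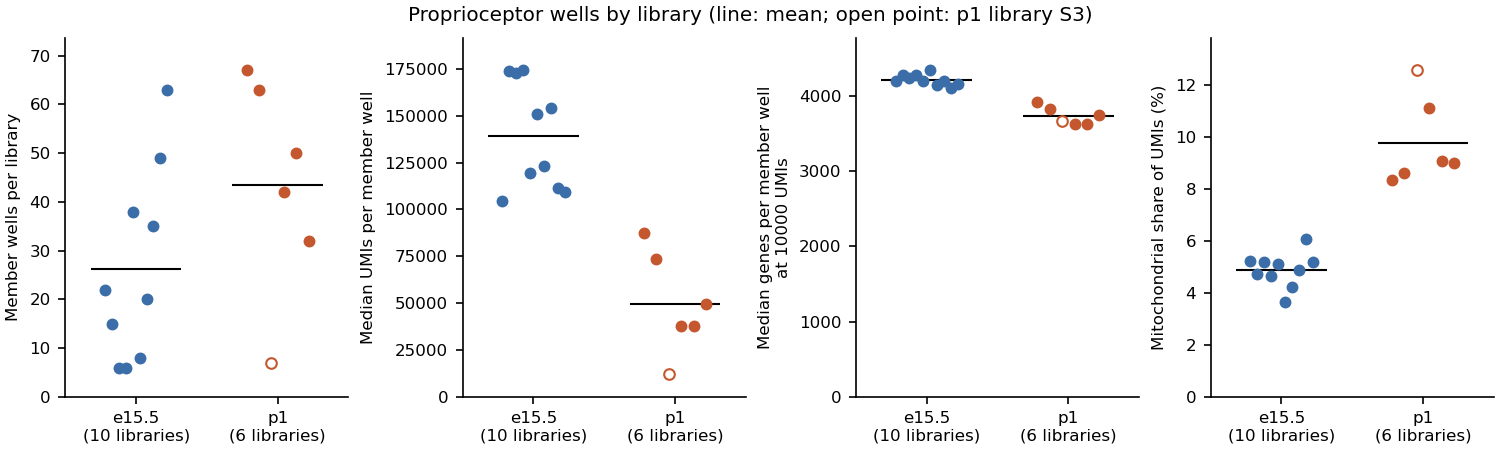
Proprioceptor wells by library: each point is 1 of the 10 libraries at e15.5 or the 6 at p1, the line is the stage mean, and the y axes give member wells, UMIs per member well, genes detected after thinning to 10000 UMIs and the mitochondrial share of UMIs in percent. The e15.5 libraries lie above all p1 libraries in UMIs and in genes, and below them in the mitochondrial share (6.09% at most against 8.35% at least); the open point, p1 library S3, has the lowest UMI median, 12244.

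Most of the measured transcriptome differed between the stages. Of 12667 genes tested with edgeR's quasi-likelihood test, 62.2% had a Benjamini-Hochberg-adjusted p under 0.05: 3876 genes (30.6%) were higher at p1 and 3997 (31.6%) lower. A change of at least 2-fold was called for 1573 genes higher (12.4%) and 1267 lower (10%). The stages did not overlap in CPM for 2859 genes (22.6%), of which 1299 (10.3% of those tested) were higher and 1560 (12.3%) lower. Without p1 library S3, 8113 genes were called, of which 7760 were shared with the same direction. These shares are the background for every gene list below, and the median log2 difference (p1 minus e15.5) over all tested genes was -0.025. Levels are relative: scaling to library totals in place of TMM factors moved that median to -0.27 and the share of calls that were higher at p1 from 49.2% to 32.6%, and averaging log values per well moved them to -0.38 and 16.8%. Small rises therefore depend on the scaling, and lists whose balance turned are named as such.

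**Figure D2:**
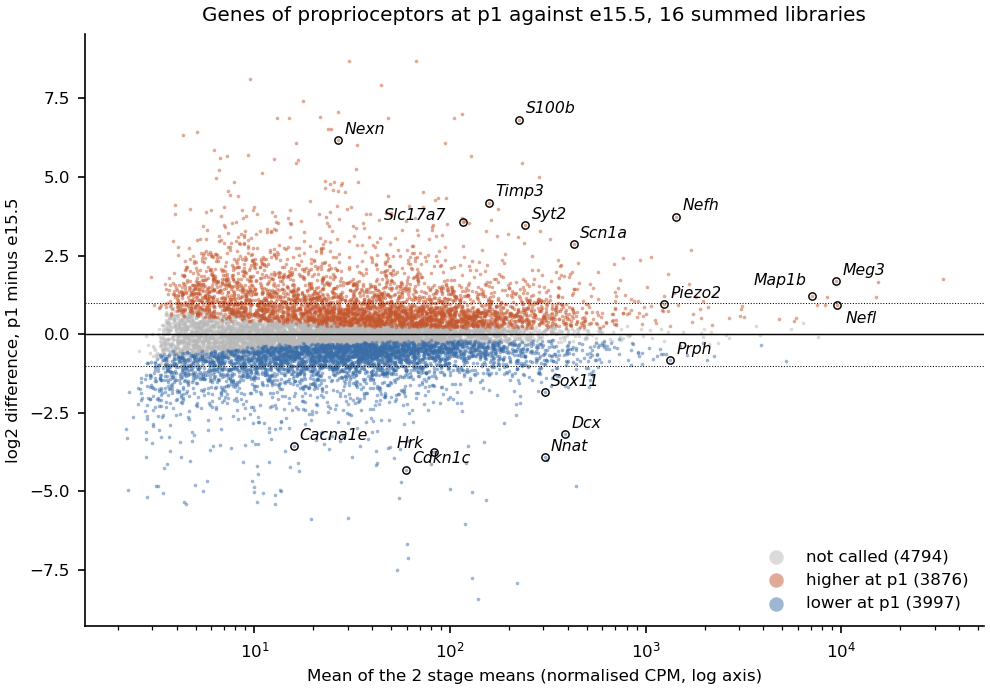
All 12667 tested genes: the x axis is the mean of the 2 stage means in normalised CPM on a log axis, the y axis the log2 difference p1 minus e15.5, and colours mark genes called higher (3876), lower (3997) or not called. Genes named in the plot are a selection from the text, from *S100b* at 6.82 to *Cdkn1c* at -4.30. They include smaller changes such as *Nefl* (0.94) and *Prph* (-0.82).

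The levels below are normalised CPM (UMIs as CPM of the TMM-scaled library total), given as the lowest, the median and the highest library of a stage, and errors of log2 differences are standard errors. The 4 marker genes were read in every library, as the conditions require. *Pvalb* stood at 394, 437 and 524 CPM at e15.5 and 781, 916 and 1208 CPM at p1, *Runx3* at 243, 281 and 304 CPM at e15.5 and 265, 364 and 464 CPM at p1, *Etv1* at 1849, 2011 and 2154 CPM at e15.5 and 1334, 1890.4 and 2528 CPM at p1, and *Ntrk3* at 1496, 1689 and 1804 CPM at e15.5 and 1068, 1280.2 and 1742 CPM at p1. The *Pvalb* ranges did not overlap and the other 3 did. Peripherin (*Prph*) and the light neurofilament (*Nefl*), peripheral neuron genes that the conditions do not use, had a UMI in at least 98.9% of thinned wells at each stage. In 398 connective tissue wells of the e15.5 libraries, thinned alike, the shares were 37.7% for *Prph* and 77.6% for *Nefl*. *Hoxc10*, a gene of lumbar segments looked at outside the naming rule, ran from 1.84 to 149 CPM at e15.5 and from 5.40 to 87.3 CPM at p1, so libraries of both stages differed widely, and the stage difference of -0.80 ± 0.67 was not called.

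Genes of other cell types were low but not absent. The 16 genes of satellite glia and Schwann cells summed to 115 to 231 CPM at e15.5 and 119.6 to 284 CPM at p1. Of the 10 tested, 4 were higher and 2 lower, a balance of 0 higher and 1 lower after thinning and of 2 and 2 with limits of 50 CPM on glial and collagen genes. The 16 connective tissue genes summed to 28.2 to 264.5 CPM and 46.6 to 93.1 CPM, with 5 of 7 tested lower at p1 and 1 higher. *Col6a1* fell (-3.69 ± 0.67). *Col1a1* and *Col1a2*, also lower, belong to the conditions, so that this count is a description. The 12 blood genes summed to 8.08 to 146 CPM and 0.982 to 1059 CPM, and *Hbb-bs*, which shares reads with its paralogs, reached 229 CPM in 1 p1 library against a median of 2.34. The 14 skeletal muscle genes summed to 14.1 to 22.8 CPM and 59.2 to 138 CPM, and most of the latter was *Tnni1*. The 10 endothelial genes, 1 of them tested, summed to 12.2 to 23.3 CPM and 8.54 to 46.2 CPM. Their part in the results was not tested.

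The largest rises and falls are described next, 12 of each among named protein-coding genes with non-overlapping stages and at least 50 CPM in the higher one. *S100b*, a small calcium-binding protein of glia and of some sensory neurons (chromosome 10, 76253853 to 76261159, plus strand), stood at 0, 2.82 and 9.97 CPM at e15.5 and 208, 348 and 786 CPM at p1. Every p1 library lay above every e15.5 library, by 6.82 ± 0.35 on the log2 scale (Benjamini-Hochberg-adjusted p = 2.34e-12 from edgeR's quasi-likelihood fit). Of wells thinned to 10000 UMIs, 79.3% had an *S100b* UMI at p1 and 4.58% at e15.5. In 398 connective tissue wells of the e15.5 libraries, thinned to the same number, the share was 16.8%, so that the e15.5 share is read as background. Without thinning the shares were 95%, 20.6% and 30.2%, at median depths of 60321, 121586 and 26789 UMIs.

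The other 11 rises ranged from 6.18 ± 0.28 (*Nexn*) to 3.85 ± 0.31 (*Tnni1*). *Nexn* encodes nexilin, an actin-binding protein of muscle Z-discs, and stood at 0, 0.402 and 1.80 CPM at e15.5 and 35.2, 57.3 and 59.9 CPM at p1. *Tnni1*, slow skeletal troponin I, went from 2.08 to 15.1 to 46.2 to 122 CPM, and *Pygm*, muscle glycogen phosphorylase, from 0 to 4.78 to 34.3 to 66.8 CPM (4.57 ± 0.31). The other skeletal muscle genes tested were at most 9.69 CPM (*Acta1*) and 7.77 CPM (*Ttn*, 1.27 ± 0.35, a call lost with log values averaged per well) in any library. *Mt1*, the metal-binding metallothionein 1, stood at 0, 1.75 and 5.0 CPM at e15.5 and 28.3, 36.3 and 162 CPM at p1. *Scn4b*, the sodium channel subunit β4, stood at 0, 0.767 and 4.47 CPM at e15.5 and 34.1, 53.2 and 82.5 CPM at p1 and had a UMI in 1.91% and 31.4% of thinned wells, against 0.251% of connective tissue wells. *Lynx1*, a membrane-anchored modulator of nicotinic receptors, went from 5.22 to 12.7 to 130.1 to 190.2 CPM (4.28 ± 0.14), and the α-tubulin *Tuba8* from 0.203 to 15.7 to 112 to 168 CPM (4.51 ± 0.37). *Timp3*, an inhibitor of matrix metalloproteinases, went from 1.82 to 37.1 to 178 to 512 CPM (4.18 ± 0.31), and *Pappa*, a secreted protease of insulin-like growth factor binding proteins, from 0.745 to 47.6 to 231 to 494 CPM (3.98 ± 0.34). *Lmo7* (4.74) and *Lrrc17* (4.34) complete the rises. *Lmo7*, *Lrrc17* and *Timp3* were common in thinned connective tissue wells too, at 24.4%, 52.8% and 69.8% against 23.4%, 60.5% and 83.1% of p1 wells. Each of the other rises had a UMI in at most 16.8% of connective tissue wells.

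Among the falls, *Cdkn1c*, the imprinted cyclin-dependent kinase inhibitor p57, went from 94.8 to 137 to 0 to 7.80 CPM, a log2 difference of -4.30 ± 0.16 (Benjamini-Hochberg-adjusted p = 1.45e-14 from edgeR's quasi-likelihood fit). *Nnat*, the imprinted neuronatin (chromosome 2, 157560078 to 157562522, plus strand), stood at 471, 535 and 734 CPM at e15.5 and 21.9, 37.4 and 56.5 CPM at p1. *Dcx*, doublecortin, which binds the microtubules of migrating and growing neurons (chromosome X, 143855842 to 143933311, minus strand), stood at 599, 689.7 and 781 CPM at e15.5 and 62.5, 79.1 and 102 CPM at p1, with no overlap (-3.18 ± 0.11). *Hrk*, the BH3-only death activator Harakiri (chromosome 5, 118164648 to 118189478, plus strand), stood at 80.3, 145 and 231 CPM at e15.5 and 7.52, 11.1 and 17 CPM at p1. Its UMIs were found in 61.8% of thinned wells at e15.5 and 8.81% at p1, against 7.04% of connective tissue wells, and in 94.3%, 40.2% and 13.8% without thinning. *Id1*, an inhibitor of basic helix-loop-helix factors, went from 32.4 to 70.8 to 0 to 8.54 CPM (-3.40 ± 0.34). In thinned wells *Id1* had a UMI in 30.2% at e15.5 against 36.4% of connective tissue wells, and *Cdkn1c* in 67.2% against 93.0%. *Rps23* was also commoner in connective tissue wells (56.1% against 87.2%), and the other falls were commoner in e15.5 member wells. The falls also included *Prkcd* (protein kinase Cδ, -3.64 ± 0.22), *Camk1g* (a calmodulin-dependent kinase, -3.57 ± 0.22), *Cacng4* (an AMPA receptor auxiliary subunit, -3.91 ± 0.39), *P2rx3* (the ATP-gated channel of sensory neurons, -3.25 ± 0.32), *Sez6* (-3.41 ± 0.31) and *Fblim1* (-3.71 ± 0.25). *Rps23* also met the rule (-3.63 ± 0.26), but its reads can be shared with near-identical copies: with its 2 named pseudogenes it summed to 526 to 722 CPM at e15.5 and 245 to 692 CPM at p1, a log2 difference of -0.56.

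Promoter windows of 200 bases, ending at the base before the RefSeq transcription start (build GRCm38.p6), were read for the largest changes to show the sequence next to those starts. A window existed for 9 of the 12 rises and 7 of the 12 falls. Shown are the first 3 of each direction with exactly 1 window and no near-identical copies, as 5′ to 3′ of the gene's strand, with matches on either strand to 5 motifs in capitals. The motifs were the TATA box (TATAAA), the box named for its letters CCAAT, the GC box (GGGCGG), and the core of the metal response element in its A form (TGCACNC) or its G form (TGCGCNC); none of the matches overlapped another. The rises are *S100b* (chr10:76253636-76253835, plus strand), *Mt1* (chr8:94178889-94179088, plus strand) and *Pygm* (chr19:6384208-6384407, plus strand); the falls are *Nnat* (chr2:157559878-157560077, plus strand), *Hrk* (chr5:118169564-118169763, plus strand) and *Camk1g* (chr1:193370283-193370482, minus strand).
S100b: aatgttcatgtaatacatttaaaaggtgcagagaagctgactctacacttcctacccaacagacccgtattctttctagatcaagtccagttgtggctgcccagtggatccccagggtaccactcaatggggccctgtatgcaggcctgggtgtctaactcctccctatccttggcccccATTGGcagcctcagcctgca
Mt1: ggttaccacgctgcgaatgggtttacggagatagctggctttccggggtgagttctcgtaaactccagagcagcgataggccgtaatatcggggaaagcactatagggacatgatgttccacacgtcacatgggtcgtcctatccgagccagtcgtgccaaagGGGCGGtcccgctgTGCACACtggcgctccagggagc
Pygm: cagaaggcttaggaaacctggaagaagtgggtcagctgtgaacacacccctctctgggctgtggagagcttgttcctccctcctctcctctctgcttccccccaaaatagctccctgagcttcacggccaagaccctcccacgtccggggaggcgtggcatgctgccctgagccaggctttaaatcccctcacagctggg
Nnat: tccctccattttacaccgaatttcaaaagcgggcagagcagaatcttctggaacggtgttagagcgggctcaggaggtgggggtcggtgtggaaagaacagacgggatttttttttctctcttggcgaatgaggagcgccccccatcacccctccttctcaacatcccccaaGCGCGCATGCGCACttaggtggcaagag
Hrk: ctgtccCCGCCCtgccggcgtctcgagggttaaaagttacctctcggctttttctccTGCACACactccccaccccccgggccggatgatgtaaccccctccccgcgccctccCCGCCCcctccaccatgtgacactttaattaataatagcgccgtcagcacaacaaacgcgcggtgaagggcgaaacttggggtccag
Camk1g: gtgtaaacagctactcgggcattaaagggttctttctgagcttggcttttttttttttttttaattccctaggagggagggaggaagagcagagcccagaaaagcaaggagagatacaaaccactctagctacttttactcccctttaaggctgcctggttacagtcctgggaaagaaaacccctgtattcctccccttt

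The *S100b* window held a CCAAT match at -20 to -16 from the start, a motif present in 29.4% of 32851 windows. The *Mt1* window held a GC box at -37 to -32 (31.1% of windows) and TGCACNC at -23 to -17 (8.29%). The *Nnat* window held adjoining TGCGCNC matches at -28 to -22 and -21 to -15 (10.9% of windows hold this motif). The *Hrk* window held GC boxes at -194 to -189 and -87 to -82 and TGCACNC at -143 to -137. It lies inside the *Hrk* gene span given above, as the RefSeq start used is downstream of the annotated gene start (118164648). No window of the 6 held TATAAA, which 9.96% of windows do, and those of *Pygm* and *Camk1g* held none of the motifs. Positions count from the RefSeq start used, and sequence downstream of it was not read. A motif missing from a window can therefore still belong to the promoter of that gene. These are matches of letters and were not tested as binding sites.

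Neurofilaments and axon growth genes moved apart. Of 6 tested intermediate filament genes, 3 were higher and 3 lower at p1. The heavy subunit *Nefh*, which adds to the calibre of large axons, stood at 145, 209 and 272 CPM at e15.5 and 2069, 2723 and 3380.0 CPM at p1, with every p1 library above every e15.5 library (3.74 ± 0.14, Benjamini-Hochberg-adjusted p = 2.71e-14 from edgeR's quasi-likelihood fit). The medium and light subunits rose less: *Nefm* by 1.19 ± 0.17 from a median of 5272 to 11561 CPM, and *Nefl* by 0.94 ± 0.13 from 6377 to 12289 CPM. Their stages did not overlap either. *Prph*, the filament of small and growing axons, fell from a median of 1715 to 992 CPM (-0.82 ± 0.096).

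Of 26 tested genes of axon growth and the growth cone, 17 were lower and 3 higher (median -0.43). Besides *Dcx*, the falls included *Marcks*, a membrane-to-actin linker, at 532, 589 and 668 CPM at e15.5 and 159, 249 and 288 CPM at p1 (-1.36 ± 0.11), and *Dpysl4*, a collapsin response mediator, at 68.2 to 112 and 17.1 to 42.2 CPM (-1.36 ± 0.12). *Map1b*, a microtubule-associated protein of growing axons, rose instead, from 3850.2 to 4841 to 7798 to 13143 CPM (1.22 ± 0.10). *Basp1*, a growth cone protein, was not called, with medians of 2087 and 2173 CPM.

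**Figure D3:**
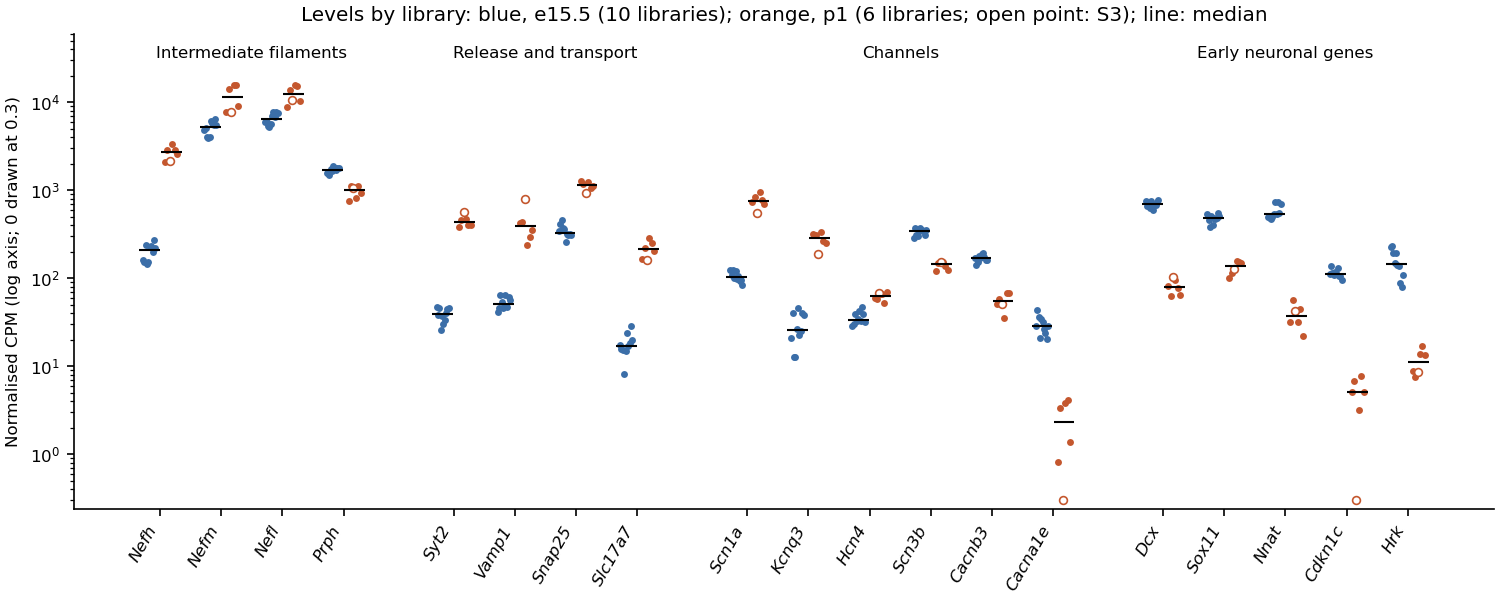
Levels of selected genes by library on a log axis in normalised CPM, with 0 drawn at 0.3: blue points are the 10 e15.5 libraries, orange points the 6 p1 libraries, the open point is p1 library S3 and the line is the median. *Nefh* (272 CPM at most at e15.5, 2069 at least at p1), *Syt2*, *Slc17a7* and *Scn1a* separate upwards, and *Cacna1e* (20.4 CPM at least, then 4.07 at most) downwards. S3 held no *Cacna1e* UMI, which at its depth allows up to 25.6 CPM, so S3 cannot show that separation.

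Genes of transmitter release rose. Of 32 tested genes of the vesicle release machinery, 23 were higher at p1 and 4 lower (median 0.78), and 15 were higher and 7 lower with log values averaged per well. *Syt2*, the calcium sensor of fast release, stood at 26, 38.9 and 46.7 CPM at e15.5 and 385, 432 and 564 CPM at p1, without overlap (3.47 ± 0.11, Benjamini-Hochberg-adjusted p = 4.02e-15 from edgeR's quasi-likelihood fit). *Vamp1*, the vesicle SNARE of motor and large sensory neurons, stood at 40.8, 50.6 and 64.8 CPM at e15.5 and 239, 390.1 and 786 CPM at p1 (2.92 ± 0.17). *Snap25*, a SNARE of the plasma membrane, went from 259 to 459 to 922 to 1264 CPM (1.73 ± 0.10), and *Rab3c*, a vesicle GTPase, from 463 to 627 to 1722 to 2434 CPM (1.92 ± 0.093). The synuclein *Sncg* was not called (0.16 ± 0.10); without S3, its lowest p1 library at 606 CPM, it was called higher (0.24), and averaging log values turned its sign.

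*Slc17a7*, the vesicular glutamate transporter VGLUT1 that marks the central terminals of proprioceptors, stood at 8.08, 17.1 and 28.7 CPM at e15.5 and 162, 212 and 288 CPM at p1 (3.57 ± 0.16, Benjamini-Hochberg-adjusted p = 3.89e-13 from edgeR's quasi-likelihood fit). Its UMIs were in 17.2% and 85.1% of thinned wells and in 0.754% of connective tissue wells. Of the 7 tested genes of glutamate transport and synthesis, 5 were higher and 1 lower, and 2 were higher and 2 lower with log values averaged per well. *Slc1a1*, a plasma membrane glutamate transporter, rose from 5.22 to 16.4 to 25.6 to 49.7 CPM (1.60 ± 0.16). *Got1*, an aspartate aminotransferase, rose by 0.56 ± 0.13, a call and sign lost with averaged log values, and glutamine synthetase *Glul*, which glia express strongly, fell (-0.65 ± 0.18), a call lost with limits of 50 CPM on glial and collagen genes (-0.39), after thinning and in wells without a *Tox* UMI.

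Voltage-gated sodium channel genes rose almost throughout, 9 of 11 tested being higher at p1 and 1 lower (median 1.66). *Scn1a*, the channel NaV1.1 of fast-firing neurons, stood at 84.6, 103 and 124 CPM at e15.5 and 555, 746 and 965 CPM at p1 (2.87 ± 0.11). Every p1 library lay above every e15.5 library. *Scn8a*, NaV1.6 of nodes and initial segments, went from 57.5 to 82.6 to 230.2 to 333 CPM (1.93 ± 0.092). The auxiliary β subunits moved in both directions. *Scn4b* rose as given above. *Scn3b* was the member that fell, from 287 to 369 to 121 to 154 CPM (-1.28 ± 0.087). *Scn3a*, the embryonic channel NaV1.3, was not called (-0.15 ± 0.090, 178 to 264 and 154 to 209 CPM).

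Of 26 tested voltage-gated potassium channel genes, 15 were higher and 4 lower. *Kcnq3*, a subunit of the M-current, stood at 12.6, 25.9 and 45.5 CPM at e15.5 and 188, 286 and 334 CPM at p1 (3.27 ± 0.19). *Kcnb2* (1.03 ± 0.082) and *Kcnh7* (1.44 ± 0.12) rose without overlap as well. *Kcna1*, KV1.1 of the juxtaparanode, went from 59.9 to 105 to 85.4 to 309 CPM (1.65 ± 0.15); p1 library S3 at 85.4 CPM lay within the e15.5 range and the other p1 libraries, from 212 CPM upwards, did not. *Kcna6* was not called (0.29 ± 0.13), though it was after thinning and when any of 5 single libraries was left out. All 8 tested genes of HCN and leak potassium channels were higher. Fewer were called higher on library totals (6), with limits of 50 CPM on glial and collagen genes (6), after thinning (5) and with averaged log values (3). None was called lower in these settings. *Hcn4*, a channel of the hyperpolarisation-activated current, stood at 28.3, 33.1 and 47.6 CPM at e15.5 and 52.6, 63.1 and 70.4 CPM at p1 (0.79 ± 0.12), and the leak channel *Kcnk1* went from 6.83 to 19.1 to 62.9 to 126 CPM (2.88 ± 0.18). *Hcn2* rose by 1.33 ± 0.19, with no UMI in S3 and 55.4 to 84.6 CPM in the other p1 libraries, a call lost with log values averaged per well (0.31).

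Calcium channel subunits moved in both directions: 8 of 17 tested were higher and 6 lower, and 6 higher and 7 lower on library totals. *Cacna1e*, the R-type channel CaV2.3, fell from 20.4, 28.5 and 43.1 CPM to 0, 2.34 and 4.07 CPM (-3.56 ± 0.29). Of the β subunits, *Cacnb3* fell from 141 to 196 to 35.2 to 68.2 CPM (-1.59 ± 0.12) while *Cacnb4* rose from 46 to 69.1 to 173 to 240.1 CPM (1.83 ± 0.096). The α2δ subunit *Cacna2d3* rose from 0.745 to 4.54 CPM to a p1 median of 16.4 CPM (3.09 ± 0.26), and *Cacna2d1* was not called (-0.16 ± 0.11).

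Of 8 tested genes of mechanotransduction, 5 were higher and 1 lower. *Piezo2*, the main mechanically gated channel of proprioceptors, stood at 376, 855 and 1149 CPM at e15.5 and 1144, 1512 and 2363 CPM at p1. S3 lay just inside the e15.5 range, and the difference was 0.96 ± 0.18 (Benjamini-Hochberg-adjusted p = 1.33e-04 from edgeR's quasi-likelihood fit). *Whrn*, whirlin, a scaffold found in proprioceptor endings, went from 5.96 to 18 to 48.2 to 94.6 CPM (2.40 ± 0.16), and *Tmem63b*, an osmosensitive channel, from 93.1 to 124 to 231 to 456 CPM (1.67 ± 0.11). *Asic2* rose (1.14 ± 0.22), a call lost after thinning, and *Asic1* was not called (0.14 ± 0.11).

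The sodium pump genes gave 6 higher and 1 lower of 9 tested, and 4 and 4 with log values averaged per well. The β subunit *Atp1b1* went from 674 to 865 to 1684 to 2391 CPM (1.33 ± 0.086). *Atp1b3* was not called, with medians of 85.9 and 84.9 CPM.

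Receptors for the transmitters that act on afferent terminals changed in part. Of 9 tested genes of GABA-A receptors and chloride transporters, 3 were higher and 2 lower, a balance that turned to 2 higher and 3 lower on library totals. *Gabra2* stood at 10.2, 29.8 and 65 CPM at e15.5 and 102, 148 and 456 CPM at p1 (2.81 ± 0.33). The chloride importer *Slc12a2* (NKCC1), which keeps chloride high in sensory neurons, was called higher by 0.35 ± 0.12 and lost that call on library totals, without the filter on low counts and with averaged log values. The exporter *Slc12a5* (KCC2) fell from 8.20 to 30.9 to 0 to 6.11 CPM (-1.87 ± 0.36). Of 10 tested ionotropic glutamate receptor genes, 6 were higher and 1 lower, and 2 higher and 1 lower after thinning. *Gria1*, an AMPA receptor subunit, stood at 0.203, 1.23 and 6.71 CPM at e15.5 and 8.54, 48.5 and 77.7 CPM at p1 (4.58 ± 0.40), *Grik2* went from 1.82 to 4.47 to 8.25 to 22.6 CPM (2.34 ± 0.22), and the NMDA receptor subunit *Grin1* from a median of 59.4 to 125 CPM (1.08 ± 0.12), with S3 at 51.2 CPM inside the e15.5 range and the call lost with averaged log values (0.45). The kainate subunit *Grik5* fell, from 115 to 162 to 42.7 to 80.5 CPM (-1.01 ± 0.11), and *Gria4* was not called (0.073 ± 0.12).

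Of 15 tested genes of calcium-binding proteins, 9 were higher and 5 lower. Besides *S100b*, the calmodulin gene *Calm3* rose from 346 to 434 to 763 to 1281 CPM (1.35 ± 0.10) and the neuronal calcium sensor *Ncald* from 89.4 to 152 to 321 to 598 CPM (1.75 ± 0.13). *Necab2* fell from 51 to 85.4 to 8.54 to 23.1 CPM (-1.72 ± 0.14), and calbindin *Calb1* was not called (8.94 to 74.5 and 23.3 to 34.7 CPM). Of 9 tested receptors of the neurotrophin and GDNF families and related genes, 4 were higher and 3 lower. The GDNF family co-receptors moved in opposite directions: *Gfra2*, the neurturin receptor, stood at 0.745, 4.23 and 19.8 CPM at e15.5 and 45.1, 69 and 111 CPM at p1 (3.09 ± 0.39), and *Gfra3*, the artemin receptor, at 22.4, 33.2 and 70.1 CPM at e15.5 and 0, 5.15 and 16.5 CPM at p1 (-2.48 ± 0.35). Their partner *Ret* was not called, at 1.28 to 20.8 and 7.32 to 23.8 CPM. The neurotrophin *Bdnf* rose from 26.7 to 87.1 to 105 to 203 CPM (1.39 ± 0.18), and the sorting receptor *Sorcs1* from 23.8 to 59.4 to 75.4 to 120.2 CPM (1.17 ± 0.15).

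Of 26 tested transcription factors of the sensory lineage, 13 were lower and 5 higher at p1, and 6 and 5 after thinning. *Sox11*, a factor of immature neurons, stood at 379.9, 484 and 551 CPM at e15.5 and 99.4, 139 and 156 CPM at p1 (-1.84 ± 0.12). *Maf*, known from cutaneous mechanoreceptors and also present in 66.3% of connective tissue wells, rose from 5.89 to 26.3 to 51.2 to 138 CPM (3.31 ± 0.25). *Esrrg*, an orphan nuclear receptor, rose from 70.8 to 135 to 156 to 284 CPM (1.06 ± 0.13), and *Klf7* from 346 to 493 to 595 to 752 CPM (0.69 ± 0.087). *Onecut2* was not called (0.32 ± 0.14), though it was after thinning and when any of 6 single libraries was left out. Of 4 tested genes of cutaneous mechanoreceptors, 2 were higher (*Maf* and *Gfra2*) and 1 lower (*Necab2*), and the 8 listed genes summed to 68.1 to 108 CPM at e15.5 and 179 to 257 CPM at p1. The 12 nociceptor genes summed to 96.9 to 289 CPM and 37.9 to 243 CPM, and *P2rx3* was lower as given above. *Tac1* was not called (-0.63 ± 0.41, 34.1 to 183 and 8.54 to 179.9 CPM), but was lower without p1 library S2 (-1.45). *Scn10a* (1.66 ± 0.69) and *Scn11a* (1.64 ± 0.53) were called higher at p1 medians of 8.61 and 7.72 CPM. Both calls ended when only wells with a *Tox* UMI were summed and with limits of 50 CPM on glial and collagen genes, and that of *Scn10a* also when any of 10 single libraries was left out. The part of these cell types in the results was not tested.

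Of 17 tested genes of developmental timing, 10 were lower and 5 higher (median -1.40), and 6 and 4 after thinning. The sum of the 22 listed genes went the other way, with medians of 6565 CPM at e15.5 and 14230 CPM at p1. Besides *Cdkn1c* and *Nnat*, the imprinted *Ndn* (necdin) fell from 518 to 628 to 162 to 222 CPM (-1.63 ± 0.082). *Meg3*, an imprinted long non-coding RNA, moved the other way, from 3787 to 5659.8 to 10343 to 22515 CPM (1.70 ± 0.15). *Lin28b*, the inhibitor of let-7 processing, was not called, at 24.3 to 41.1 and 17.1 to 47.2 CPM. Of 18 tested chromatin and DNA methylation genes, 6 were higher and 8 lower, and 5 and 2 after thinning. *Ss18*, a BAF complex subunit that is replaced as neurons become postmitotic, fell from 39 to 48.7 to 9.43 to 17.1 CPM (-1.86 ± 0.11), and the neuronal subunit *Actl6b* fell too, from 129 to 180.3 to 59.8 to 107 CPM (-0.87 ± 0.093). *Dnmt3a*, the de novo DNA methyltransferase, rose from 165 to 253 to 438 to 541 CPM (1.22 ± 0.096) and the 5-methylcytosine dioxygenase *Tet3* from 51.1 to 63.4 to 68.3 to 114 CPM (0.81 ± 0.085).

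Hormone response genes were called in 4 of 10 tested, 2 in each direction, and 2 higher and 5 lower on library totals. *Klf9*, a target of thyroid hormone and glucocorticoid receptors, stood at 0, 4.73 and 6.62 CPM at e15.5 and 54.4, 70.7 and 102 CPM at p1 and did not overlap (3.84 ± 0.19, Benjamini-Hochberg-adjusted p = 1.73e-12 from edgeR's quasi-likelihood fit). The glucocorticoid target *Tsc22d3* (GILZ) rose by 0.76 ± 0.11, a call and sign lost with averaged log values, whereas *Fkbp5*, another glucocorticoid target, fell by -0.35 ± 0.13, a call lost under several settings, the limits of 50 CPM among them. The retinoid receptor *Rxrg* fell from 8.08 to 22.1 to 0 to 6.78 CPM (-1.45 ± 0.27), and the thyroid hormone receptor *Thra* was not called (-0.046 ± 0.092).

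Guidance genes changed in both directions. Of 23 tested semaphorins, plexins and neuropilins, 8 were higher and 7 lower, near the shares of all tested genes (30.6% and 31.6%). On library totals the counts were 7 and 8. *Sema7a*, a membrane-anchored semaphorin, stood at 8.11, 9.48 and 11.3 CPM at e15.5 and 34.2, 117 and 164 CPM at p1 (3.61 ± 0.15). Among the receptors, *Plxna2* rose from 120.0 to 215 to 489 to 837 CPM (1.98 ± 0.14), *Plxnb1* fell from 35.8 to 67.3 to 8.07 to 16.3 CPM (-2.13 ± 0.18), and *Plxna3* fell from 35 to 55.8 CPM to a median of 15.5 CPM (-1.69 ± 0.15), with S3 at 42.7 CPM. *Plxnd1*, a receptor with a role in sensory-motor specificity, was not called: its medians were 137 and 137 CPM, and it was called higher after thinning (0.67).

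Of 15 tested ephrins and Eph receptors, 7 were lower and 3 higher, and 2 and 2 after thinning. *Efna3* stood at 73.6, 105 and 129 CPM at e15.5 and 17, 27.9 and 42.7 CPM at p1 (-2.03 ± 0.15), *Efna2* fell by -1.31 ± 0.15, and *Efnb3* from 2.84 to 9.09 to 0 to 0.678 CPM (-3.46 ± 0.47). *Epha4*, a receptor of ephrin-A and ephrin-B ligands, rose from 17.1 to 45.8 to 50.5 to 119 CPM (1.62 ± 0.19), and *Epha10* was not called (-0.085 ± 0.14). Of 10 tested genes of the Slit, Robo and netrin systems, 5 were higher and 3 lower, and 4 and 4 with averaged log values. The receptor *Robo2* stood at 4.05, 12.5 and 33.5 CPM at e15.5 and 102, 154 and 187 CPM at p1 (3.30 ± 0.29) and the ligand *Slit2* at 118, 141 and 204 CPM at e15.5 and 323, 425 and 534 CPM at p1 (1.53 ± 0.11). *Robo1* was not called (50.3 to 82 and 43.9 to 103 CPM). The netrin receptor *Unc5a* rose from 2.73 to 8.20 to 13.8 to 18.3 CPM (1.49 ± 0.19) and *Dscam* by 0.77 ± 0.11.

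Adhesion genes mostly rose: 13 of 24 tested cadherins, contactins and related genes were higher and 2 lower. *Cntnap1* (Caspr), a paranodal protein, stood at 35.9, 46 and 59.1 CPM at e15.5 and 116, 132 and 171 CPM at p1 (1.53 ± 0.10). Its paranodal partner *Cntn1* rose from 158 to 226 to 368 to 529.5 CPM (1.20 ± 0.093), and neurofascin (*Nfasc*), found at nodes and paranodes, from 31.4 to 49.3 to 101 to 134 CPM (1.42 ± 0.094). *Cntn3* rose by 2.38 ± 0.27 from a median of 2.51 CPM, and *Ncam1* was not called (495 to 945 and 248 to 807 CPM).

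Of 20 tested genes of glycolysis and lactate handling, 12 were lower and 4 higher, and 16 and 3 with log values averaged per well. The neuronal enolase *Eno2* rose from 162 to 258 to 588 to 775 CPM (1.64 ± 0.095), *Aldoc*, aldolase C, from 17.9 to 63.6 to 111 to 243 CPM (2.13 ± 0.21), and the monocarboxylate transporter *Slc16a1* from 19.4 to 38.3 to 76.9 to 110.2 CPM (1.73 ± 0.15). The isomerase *Gpi1* fell from 557 to 660.1 to 342 to 420.0 CPM (-0.62 ± 0.067), and lactate dehydrogenase A (*Ldha*) was not called (254 to 398 and 171 to 338 CPM), but was lower on library totals (-0.44), after thinning (-0.44) and with averaged log values (-1.27). Of 75 tested nuclear-encoded respiratory chain genes, 44 were higher and 2 lower (median 0.32), but 25 and 9 on library totals, and with log values averaged per well the balance turned to 7 higher and 44 lower. Among those that rose, *Cox7c* stood at 105, 167 and 245 CPM at e15.5 and 440.1, 539.8 and 735 CPM at p1 (1.80 ± 0.16), *Ndufa5* at 144 to 204 and 426 to 556 CPM (1.41 ± 0.085), *Atp5k* at 142 to 199 and 333 to 556 CPM (1.33 ± 0.11) and *Ndufa10* at 187 to 263 and 401 to 461 CPM (0.88 ± 0.076). *Atp5g3* was not called (0.077).

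The 13 mitochondrially encoded genes belong to the share that chose the wells, so their values are a description. *mt-Co3* ran from 49.6 to 129 CPM at e15.5 and from 184 to 1139 CPM at p1. In the same order, *mt-Co2* ran from 143 to 368 and from 350.2 to 1368 CPM, *mt-Atp8* from 27.6 to 81.2 and from 94 to 298 CPM, and *mt-Atp6* from 128 to 275 and from 307 to 695 CPM. *mt-Nd4* had medians of 5112 and 7066 CPM with overlapping libraries. These genes share reads with copies in the nuclear genome.

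Of 20 tested genes of cholesterol synthesis and its control, 11 were lower and 4 higher, and 5 and 1 after thinning. The enzymes *Mvk* (92.7 to 122 and 37.3 to 58.1 CPM, -1.16 ± 0.12), *Nsdhl* (-0.97 ± 0.13) and *Dhcr7* (-1.04 ± 0.14) fell. *Insig1*, which retains the sterol sensor in the endoplasmic reticulum, rose from a median of 8.27 to 32.7 CPM (1.98 ± 0.20), with no UMI in S3. *Msmo1* was not called (-0.19 ± 0.11), but was lower under 7 other settings, among them library totals (-0.44) and the limits of 50 CPM (-0.38).

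Of 17 tested genes of intrinsic cell death, 9 were lower and 3 higher. The fall of *Hrk* is given above. The survival gene *Bcl2l1* (Bcl-xL) fell as well, from 47.7 to 75.8 to 24.8 to 29.7 CPM (-1.27 ± 0.11). The caspase inhibitor *Xiap* rose (53 to 73.6 and 68.3 to 138 CPM, 0.88 ± 0.11), and so did its antagonist *Diablo* (0.56 ± 0.079), a call lost with averaged log values. *Casp9* was not called, with medians of 27.6 and 25.5 CPM.

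Of 18 tested secreted peptides and growth factors, 5 were higher and 4 lower, and 3 and 7 on library totals. *Fgf1* stood at 5.39, 16.6 and 79 CPM at e15.5 and 76.1, 103 and 296 CPM at p1 (2.50 ± 0.43) and chromogranin A (*Chga*) at 146 to 231 and 309.7 to 623 CPM (1.06 ± 0.12). The neuropeptide galanin (*Gal*) fell from 7.18, 37 and 107 CPM to 0, 1.54 and 9.90 CPM (-3.12 ± 0.53) and secretin (*Sct*) from a median of 34.5 to 6.35 CPM (-2.48 ± 0.45). The e15.5 libraries of both spread widely and reached down into the p1 range. *Chgb* was not called (0.14 ± 0.090).

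Of 23 tested genes that respond to dissociation and stress, 13 (56.5%) were called, against 62.2% of all tested genes. Of these 13, 7 were higher and 6 lower. On library totals 3 were higher and 8 lower. The immediate early gene *Jun* was lower at p1, at 326 to 579 against 142 to 205 CPM (-1.40 ± 0.13). *Ier3* was lower as well (-1.45 ± 0.21), while *Gadd45g* (1.04 ± 0.18) and the chaperone *Hsp90aa1* (1881 to 2432 and 2733 to 5918 CPM, 0.90 ± 0.12) were higher. In wells without a *Tox* UMI the calls of *Ier3* (-0.55) and *Gadd45g* (0.43) were lost. *Jund* was not called (0.29 ± 0.14) and was called higher without S3 (0.35), which stood at 34.2 CPM, and without S2 (0.37). Their part in the results was not tested.

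The study chose 7 muscle-type genes on these samples, of which 6 were tested, so their count is not independent evidence: 2 were higher, none lower. The p1 lines favoured back muscle cells, so for these genes stage cannot be told apart from the choice of cells. *Tox*, a nuclear factor that the study connects with back muscle, was not called and varied widely within each stage, 10.4, 29.9 and 64.6 CPM at e15.5 and 4.04, 56.3 and 102 CPM at p1. Without thinning, its UMIs were in 37.5% to 83.3% of the member wells of the e15.5 libraries and in 9.52% to 84.4% at p1. Depth was lower at p1, so these shares are at unlike depth. The split of wells by a *Tox* UMI was also made without thinning. *Epha3*, also a back muscle gene of the study (17.1 to 49.2 and 6.97 to 35.8 CPM), *C1ql2*, its abdominal muscle gene (0 to 19.1 and 0 to 14.4 CPM), and *Chodl*, which it connects with hindlimb muscle (0 to 27.6 and 0 to 40.4 CPM), were not called either. Of the hindlimb genes of the study, *Efna5* and *Gabrg1* were called higher. The ephrin *Efna5* stood at 4.49, 15 and 35.5 CPM at e15.5 and 10.5, 27.6 and 146 CPM at p1 (1.54 ± 0.43), and the GABA-A receptor subunit *Gabrg1* at 0, 5.60 and 48.2 CPM at e15.5 and 10.5, 21.4 and 265 CPM at p1 (2.08 ± 0.73). Both p1 maxima were in library S2, without which neither was called (0.69 and 0.78), while *Tox*, lowest in S2, was called higher without it (0.81). The calls of *Efna5* and *Gabrg1* were also lost with limits of 50 CPM on glial and collagen genes, in wells with a *Tox* UMI and with averaged log values, and that of *Gabrg1* also with DESeq2 and with libraries of at least 10 member wells. *Trpv1* did not pass the filter on low counts, with at most 5.02 CPM in a library.

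When wells with and without a *Tox* UMI were summed separately, 6454 and 5501 genes were called. Of the genes called in all wells, 6132 and 5315 kept their direction and 0 had the opposite call in either group. Of 8 tested genes that have been used to tell spindle from tendon organ afferents, 3 were higher and 3 lower. *Heg1* rose from 2.24 to 22.9 to 23.3 to 119.6 CPM (2.29 ± 0.31) and *Cdh13* from 124 to 249 to 242 to 416 CPM (0.84 ± 0.14), while *Kcnip2* fell from 154 to 250.2 to 78.3 to 145 CPM (-0.93 ± 0.14) and *Agpat4* from 50.9 to 80.2 to 25.6 to 48.9 CPM (-0.82 ± 0.14).

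**Figure D4:**
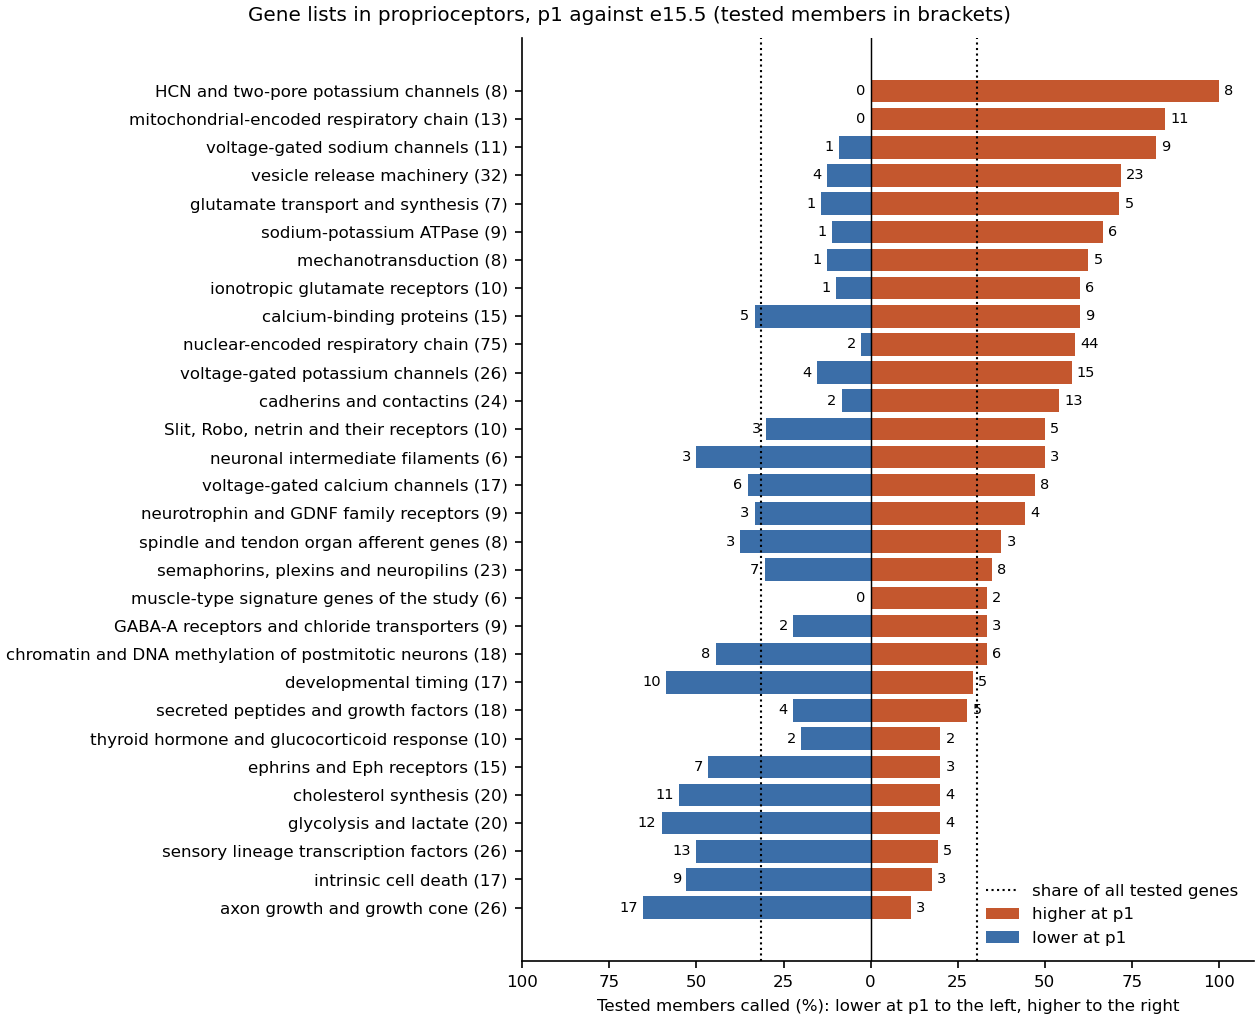
Share of tested genes of each list called higher at p1 (to the right) or lower (to the left), in percent of the tested genes given in brackets; the dotted lines are the shares over all genes, 30.6% higher and 31.6% lower. HCN and leak channels (8 of 8 higher), sodium channels (9 of 11) and vesicle release (23 of 32) lie far to the right, and axon growth (17 of 26 lower) and glycolysis (12 of 20 lower) to the left.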

How the data were processed

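CEL-Seq2 libraries of single cells of mouse DRG, 96 wells each, were analysed: 10 at e15.5 and 6 at p1. The authors demultiplexed, aligned and counted the reads with scruff and deposited whole-number UMI counts per gene and well, on GRCm38 (mm10) per the submitters' processing notes; no source used here gives their aligner or gene annotation. Of 49671 genes, 49412 were paired with a symbol through the GENCODE annotation of GRCm38, and the annotation gave the coordinates. Counts include reads of pseudogenes and gene copies as the authors assigned them.

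The member wells of each library were summed, keeping libraries with at least 5 such wells. Genes were filtered with filterByExpr, scaled by TMM and tested with edgeR 4.0.16 in R 4.3.3 (quasi-likelihood F test, p1 against e15.5, no covariate), with Benjamini-Hochberg adjustment over all 12667 tested genes and a threshold of 0.05. Wells were thinned to 10000 UMIs for detection shares. Counts were simulated for this comparison with 100 genes changed 2-fold and 100 changed 4-fold, evenly up and down. With 12480 genes tested there, 84% of 2-fold and 97% of 4-fold changes were recovered and 5.73% of calls were false. In the data 62.2% of genes were called and the balance of directions moved with the scaling, a setting that was not simulated. These rates therefore need not hold for the data. The genes named are the 12 largest rises and 12 largest falls among protein-coding genes with a symbol that is not a model name, at least 50 CPM in the higher stage and no overlap; the 4 members of each gene list with the lowest adjusted p and the most abundant one not called; the genes that chose the wells; and the muscle-type genes of the study. Some genes that this rule names are not reported here and were not replaced; they stay in the fits and in the counts of lists. Genes that chose the wells also stay in the counts of any list that holds them, and there the count is partly a description. The members, lists and tests were chosen with earlier results of these data known.

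Alternatives were RLE size factors, DESeq2 1.42.0, no filter, thinned wells, limma 3.58.1 (limma-trend) on the mean over wells of log2(CPM + 10), libraries of at least 10 member wells, wells of at least 20000 UMIs, limits of 50 CPM on glial and collagen genes, no *Etv1* minimum, the study's quality limits, protein-coding nuclear genes alone, wells with or without a *Tox* UMI, the library numbers as a block and each library left out. Library totals in place of scaling factors, and libraries S1 to S6 without the block, were added after seeing the data. Pairs of libraries differed by more than sampling noise, the smallest chi-square per degree of freedom being 2.20 within a stage. Counting limits cover counting error alone, and depth per library is given in the text. Python 3.11.15, NumPy 2.4.6, pandas 2.3.3, SciPy 1.17.1 and Matplotlib 3.10.9 were used.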

Additional observations from a re-analysis of the deposited data

Results flagged for a closer look

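Of 360 groups examined (180 measures in each stage), 30 had 1 library far from the others by Dixon's criterion, at which chance flags about 1 in 20. Of these 30, 17 concern p1 library S3, the shallowest. There, the lowest value was 0 CPM for *Cdkn1c*, *Cacna2d3*, *Hcn2*, *Rxrg*, *Efna2*, *Insig1*, *Ttn* and *Acta1*, which at this depth allows up to 25.6 CPM. S3 was also lowest for *Dpysl4* (17.1 CPM), *Sncg* (606 CPM), *Kcna1* (85.4 CPM), *Sema7a* (34.2 CPM), *mt-Co2* (350.2 CPM), *Gpi1* (342 CPM) and *Jund* (34.2 CPM), and highest for *Plxna3* (42.7 CPM) and *Casp9* (51.2 CPM).

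Of the other p1 libraries, S1 was lowest for *Nexn* (35.2 CPM), S2 for *Tox* (4.04 CPM) and *Epha3* (6.97 CPM), and S6 for *Id1* (0 CPM) and *Scn11a* (0.914 CPM), while S4 was highest for *Ndufa5* (556 CPM) and *Dhcr7* (31.4 CPM). At e15.5, library S6 with 8 member wells was lowest for *Pappa* (0.745 CPM), *Slc1a1* (5.22 CPM) and *Piezo2* (376 CPM), and S4 with 6 member wells for *Slc17a7* (8.08 CPM), *Klf9* (0 CPM) and *Nfasc* (31.4 CPM).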

How the results depend on the processing

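Counts of called genes stayed within 1.5 times of the 7873 reported under RLE size factors (7900), DESeq2 (7777), libraries of at least 10 member wells (8411), wells of at least 20000 UMIs (8086), limits of 50 CPM on glial and collagen genes (7131), no *Etv1* minimum (7941), the study's quality limits (7714), protein-coding nuclear genes alone (6754), library totals (8307, chosen after seeing the data) and with each library left out (7485 to 8113). Without the filter on low counts 10809 genes were called, and 6210 in place of 2840 at 2-fold. With wells thinned to 10000 UMIs, where 6605 genes could be tested, 3573 were called (1779 higher, 1794 lower) and 1526 at 2-fold. Averaging log2(CPM + 10) over wells gave 1463 higher and 7269 lower, and 140 of the reported calls were then opposite; under every other setting 0 were.

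Of 177 named genes, 5410 of 5550 values kept their side of the threshold, 50 lost their call, 79 gained one and 11 changed sign with a call before or after; among the 5410, 96 values that were called in neither fit changed sign. With log values averaged per well the sign changed for *Basp1* (-0.38), *Sncg* (-0.41), *Got1* (-0.20), *Atp1b3* (-0.57), *Slc12a2* (-0.076), *Tsc22d3* (-0.024), *Robo1* (-0.48), *Atp5g3* (-0.65), *Casp9* (-0.41) and *Acta1* (-0.20), and for *Hba-a1* without p1 replicate 5 (-2.44; up to 2.33 without another library). Of genes given as not called, library totals made *Scn3a* (-0.39), *Cacna2d1* (-0.40), *Thra* (-0.29), *Epha10* (-0.33), *Ncam1* (-0.50), *Ldha* (-0.44) and *Msmo1* (-0.44) lower. Beyond the shift of the scale given in the report, the cause was not tested. The library numbers S1 to S6 occur at both stages, but same-numbered libraries did not deviate together (correlation -0.23 to 0.064 over 6 pairs and 2000 genes, 0 of 6 p1 libraries closest to their own number). The labels do not say whether they share more than a number. With the number as a block 5892 genes were called, against 6652 in the same 12 libraries without it. Depth limits p1 library S3 most, where 3 counts are 25.6 CPM.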

Other observations

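Annotated pseudogenes, looked at after the values were seen, took 8.85% of the summed UMIs at e15.5 and 8.05% at p1 (means of libraries) and held many of the most extreme changes. Among genes of at least 50 CPM in the higher stage, a called change of at least 16-fold was found for 33 of 302 pseudogenes (10.9%, 15 higher and 18 lower at p1), 13 of 4404 protein-coding genes (0.295%) and 4 of 70 other genes (5.71%). The log2 difference (p1 minus e15.5) was -7.92 for *Gm13680*, whose mean went from 439 to 3.02 CPM, and 8.70 for *Gm8599* (0.343 to 133 CPM).

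In some gene families copies moved in opposite directions. *Rps12* and its named pseudogenes, 24 genes, summed to 705, 989.7 and 1431 CPM (lowest, median and highest library) at e15.5 and to 487, 854 and 1248 CPM at p1, a log2 difference of -0.23. In the same libraries *Rps12-ps16* went from 217 to 374 CPM at e15.5 to at most 1.36 CPM at p1 (-8.42), and *Rps12-ps6* from 5.82 to 12.7 CPM up to 68.3 to 239 CPM (4.33). *Hmgb1-ps6* rose by 6.08 while its family of 10 genes rose by 1.76. In other families examined the sum itself fell, by -2.63 for the 11 genes of *Rps2*, -2.15 for the 7 of *Rpl10* and -0.99 for the 15 of *Rpl21*. No cause was tested.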
